A study of Mus musculus with 7 samples.

Results

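Transcripts of the NRF2 pathway and of antioxidant enzymes were examined in 3T3-L1 adipocytes that had differentiated with or without an inhibitor of stearoyl-CoA desaturase (SCD). The set holds 10 genes: Nfe2l2, Keap1, Nqo1, Hmox1, Txnrd1, Srxn1, Prdx1, Sod1, Sod2 and Cat. A gene entered when a row of the array table carried its symbol and no other, and where several rows did, the one with the highest mean was used. All 10 were found, among 18820 genes. The cells are an established mouse fibroblast-like line that turns into fat cells, given human insulin throughout, with isobutylmethylxanthine and dexamethasone added for the first 2 days. In the DMSO group 4 samples received the solvent, and in the SCD inhibitor group 3 received 1 µM of a commercial compound, not named in the sources used here, throughout. RNA was taken on day 7, with 1 array per sample, and no genetic change is given for either group. The labels do not say whether replicates were separate cultures, and each p-value therefore reflects the spread among 7 samples that may be technical repeats.

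NRF2, the product of Nfe2l2, is a transcription factor that KEAP1 holds in the cytosol and hands over for degradation. Oxidants and electrophiles modify KEAP1, NRF2 then enters the nucleus, pairs with a small MAF protein and binds antioxidant response elements. Its targets recycle thioredoxin and peroxiredoxins, make glutathione, reduce quinones and break down haem, while superoxide dismutases and catalase are general antioxidant enzymes under several other controls. Many antioxidant enzymes are well expressed in fat cells.

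With the inhibitor, 2 of the 10 genes fell and none rose. Hmox1, which encodes the haem-degrading enzyme haem oxygenase 1, was 16.9% lower, and Srxn1, which encodes sulfiredoxin, was 12.8% lower. Nfe2l2 itself read 13.6% lower and Nqo1 11.1% higher, and neither passed the test. In limma's fit 8.00% of all 18820 genes were called at an adjusted p under 0.05, 3.62% higher and 4.37% lower. The 2 called genes are 20.0% of the 10, and no test was made of the gap between these shares. The 10 were chosen with earlier results of these data known. The 10 genes were also brighter, with a median level of 10.53 against 5.59 over all genes, and the shares were not matched for level. At an unadjusted p under 0.05 there were 4 lower and 3 higher genes, where 21.9% of all genes met that bound. The number of higher genes among them was 1 when SCD inhibitor 2 was left out and 0 when SCD inhibitor 3 was. The median log2 difference of the 10 was 0.05, against -0.00 over all genes. Differences in log2 are inhibitor minus DMSO throughout, with their standard error (SE). When the arrays were centred on their medians, the split went from 0 higher and 2 lower to 2 higher and 3 lower, and over all genes from 682 higher and 823 lower to 1296 and 1030. Without both arrays numbered 1, neither Hmox1 nor Srxn1 passed.

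Facts of the whole comparison touch these values. Arrays of 1 group correlated at 0.99902 to 0.99948 over all genes, and arrays of different groups at 0.99684 to 0.99750. SCD inhibitor 1 had the lowest median of all arrays, 5.53 against 5.58 to 5.61 on the others. The labels call the material pre-adipocyte, whereas the fat cell marker Adipoq stood at 12.39 in DMSO and 12.44 with the inhibitor. None of 8 adipocyte markers passed in limma (2 at an unadjusted p under 0.05), with a mean level of 12.01 to 12.05 in DMSO and 12.02 to 12.06 with the inhibitor. Of 7 measured preadipocyte and fibroblast markers 4 rose, 57.1%, where 3.62% of all genes did. The 7 markers had mean levels of 8.54 to 8.65 in DMSO and 8.88 to 8.98 with the inhibitor. Their part in the results was not tested. None of 8 macrophage and leukocyte markers passed (1 at an unadjusted p under 0.05), beside the same 8.00% and 21.9% of all genes. Their mean level lay between 4.27 and 4.34 on all arrays. Fewer cells of a type and less RNA per cell cannot be told apart in such bulk samples.

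**Figure D1:**
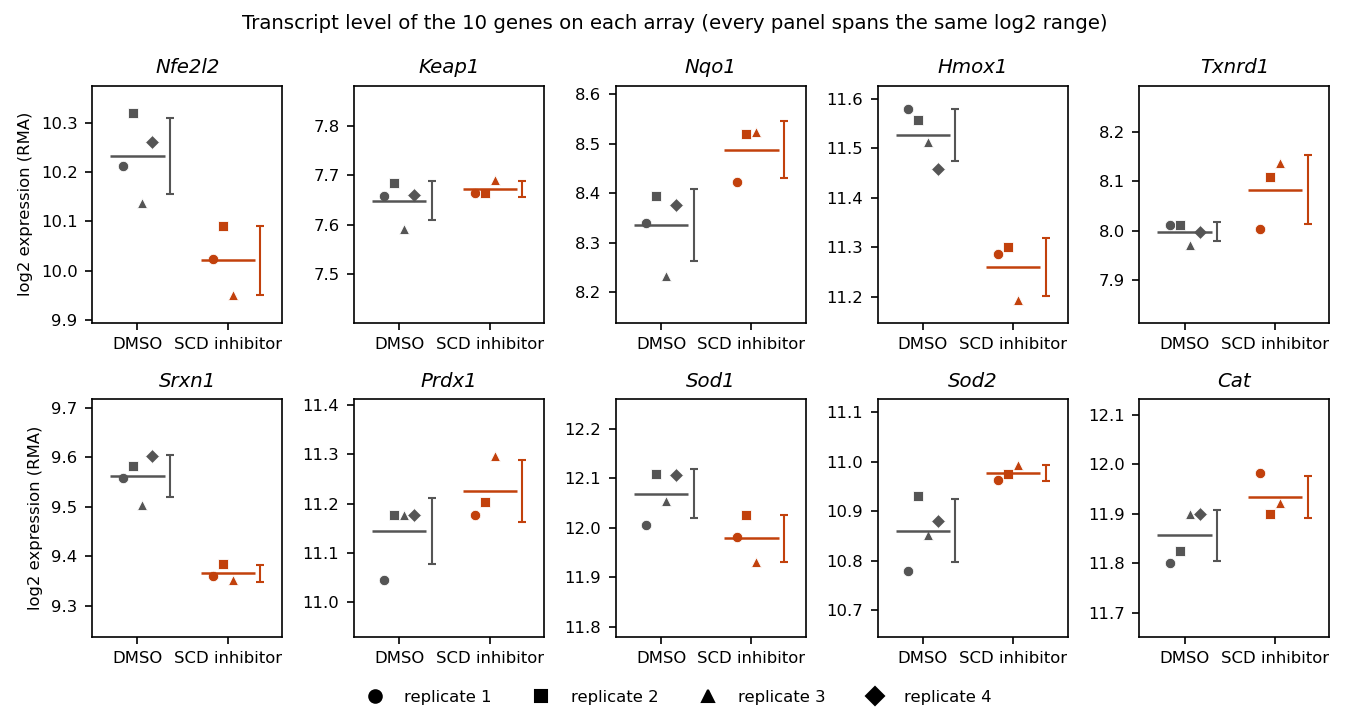
Log2 expression (RMA) of each of the 10 genes on each array, DMSO in grey and SCD inhibitor in orange, with the marker shape giving the replicate number; horizontal lines are group means and bars are ± 1 SD (n = 4 and n = 3). Hmox1, Srxn1 and Nfe2l2 lie wholly lower with the inhibitor, Nqo1 and Sod2 wholly higher, and the other 5 genes overlap or touch.

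Nfe2l2 encodes the pathway's transcription factor. Its log2 level in the 4 DMSO samples was 10.21, 10.32, 10.14 and 10.26, and in the 3 inhibitor samples 10.02, 10.09 and 9.95. All inhibitor values lay below all DMSO values, with a gap of 0.047 between the nearest samples. The mean went from 10.23 ± 0.0768 (SD, n = 4) to 10.02 ± 0.0694 (SD, n = 3). The log2 difference of -0.21 (SE 0.051, 95% interval -0.33 to -0.09) had an adjusted p of 0.0571 in limma and was not called. It was negative in all 17 alternative settings and passed in 7 of them, with adjusted p from 0.0242 to 0.245. Leaving out DMSO 3, the lowest of the DMSO samples, was one of these 7 (adjusted p = 0.0479 in limma).

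NRF2 is known to act on antioxidant response elements near its targets and near its own gene. Windows of 250 bases before the annotated transcription starts were therefore searched on both strands for the core letters TGACNNNGC and for the related AP-1 element TGANTCA, with the sequences taken from RefSeq (GRCm38.p6). Of all 32851 windows of this length 10.2% hold the first and 6.75% the second. Windows were matched for 9 of the 10 genes, 11 in all since Txnrd1 has 3 starts, and Hmox1 was not matched. The antioxidant response element core is present in 4 of the 11 windows and the AP-1 element in 2. A match describes letters and is no evidence of binding. Bases farther upstream were not searched, so a window without a match does not mean that the gene lacks an element. The window of Nfe2l2 (chr2:75704664-75704913, minus strand) is shown 5′ to 3′ because the gene encodes the factor itself; capitals mark the core, 240 to 232 bases before the start.
Nfe2l2: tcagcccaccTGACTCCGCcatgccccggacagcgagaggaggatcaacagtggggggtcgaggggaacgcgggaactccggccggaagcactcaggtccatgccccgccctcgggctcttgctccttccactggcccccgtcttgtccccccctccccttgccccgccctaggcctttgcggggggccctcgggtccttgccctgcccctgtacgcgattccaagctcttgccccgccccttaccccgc

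Keap1 encodes the sensor that keeps NRF2 low. It read 7.66, 7.68, 7.59 and 7.66 in DMSO and 7.66, 7.66 and 7.69 with the inhibitor. Before rounding, DMSO 2 lay above SCD inhibitor 1 and SCD inhibitor 2, so that the groups overlapped. The other DMSO samples lay below every inhibitor sample. The log2 difference of Keap1 was 0.02 (SE 0.026), with a 95% interval of -0.04 to 0.09 (adjusted p = 0.635 in limma). It passed in none of the 17 alternatives in limma, with adjusted p from 0.501 to 0.902. Its window holds neither set of letters.

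Hmox1 is a target of NRF2 that is also controlled by the repressor BACH1 and by ATF4. Its log2 level was 11.58, 11.56, 11.51 and 11.46 in DMSO and 11.29, 11.30 and 11.19 with the inhibitor. Every inhibitor sample lay below every DMSO sample, with a gap of 0.16 that exceeded the range within either group. Hmox1 fell from 11.53 ± 0.0534 (SD, n = 4) to 11.26 ± 0.0585 (SD, n = 3), a log2 difference of -0.27 (SE 0.039, 95% interval -0.36 to -0.17, adjusted p = 0.00934 in limma). By size of the difference it ranked 1321 of 18820 genes. It passed in 16 of 17 alternatives. The exception was the fit without both arrays numbered 1, where the difference was -0.26 and the adjusted p 0.079 in limma; the adjusted p ranged from 0.00364 to 0.079.

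Sulfiredoxin, the product of Srxn1, repairs peroxiredoxins that peroxide has over-oxidised. The log2 level of Srxn1 was 9.56, 9.58, 9.50 and 9.60 in DMSO and 9.36, 9.38 and 9.35 with the inhibitor. The inhibitor samples lay close together and wholly below the DMSO samples, with a gap of 0.12. Srxn1 fell from 9.56 ± 0.0429 (SD, n = 4) to 9.37 ± 0.0174 (SD, n = 3), a log2 difference of -0.20 (SE 0.027, 95% interval -0.26 to -0.13, adjusted p = 0.00729 in limma). It too passed in 16 of 17 alternatives and was not called when both arrays numbered 1 were left out (log2 -0.19, adjusted p = 0.0831 in limma, over a range from 0.00422 to 0.0831). The window of Srxn1 (chr2:152105274-152105523, plus strand) is shown because the gene was called. Capitals mark 2 AP-1 elements, which begin 102 and 45 bases before the start. The antioxidant response element core as searched is not in it. The second AP-1 element, read with the gc after it, matches that core except for a G in place of its C. A core that allows this G was not searched.
Srxn1: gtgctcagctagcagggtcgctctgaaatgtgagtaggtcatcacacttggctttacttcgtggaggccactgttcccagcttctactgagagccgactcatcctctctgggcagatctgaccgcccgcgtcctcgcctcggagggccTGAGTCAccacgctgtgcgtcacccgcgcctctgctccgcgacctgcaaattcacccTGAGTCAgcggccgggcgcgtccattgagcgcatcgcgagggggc

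Prdx1 encodes a cytosolic peroxiredoxin, a peroxide-reducing substrate of sulfiredoxin. It read 11.04, 11.18, 11.18 and 11.18 in DMSO and 11.18, 11.20 and 11.30 with the inhibitor, and the groups touched at 11.18. Its log2 difference was 0.08 (SE 0.045, 95% interval -0.03 to 0.19, adjusted p = 0.365 in limma). A second row of the table carried the symbol Prdx1. It read 11.04, 11.06, 11.05 and 11.07 in DMSO and 11.07, 11.12 and 11.19 with the inhibitor, a log2 difference of 0.07 (SE 0.029, adjusted p = 0.22 in limma). Both rows thus gave a difference of like size that did not pass. RefSeq lists a pseudogene of Prdx1, and signal from near-identical copies cannot be told apart here. The array's number for the row used is close to that of Sod1, on chromosome 16, whereas the window of Prdx1 lies on chromosome 4. The row used may thus read a copy, and the second row the Prdx1 locus, which was not tested. The window of Prdx1 (chr4:116685349-116685598, plus strand) is shown because it holds both motifs: AP-1 elements begin 237 and 131 bases before the start, and the second of them lies inside an antioxidant response element core on the opposite strand, 133 to 125 bases before the start.
Prdx1: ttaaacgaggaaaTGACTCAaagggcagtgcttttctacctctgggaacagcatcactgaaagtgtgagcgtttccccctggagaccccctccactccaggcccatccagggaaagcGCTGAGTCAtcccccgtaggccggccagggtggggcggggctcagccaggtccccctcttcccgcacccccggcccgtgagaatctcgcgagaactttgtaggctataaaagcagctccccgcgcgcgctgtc

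Txnrd1 encodes cytosolic thioredoxin reductase, the selenoprotein that regenerates thioredoxin with NADPH. It read 8.01, 8.01, 7.97 and 8.00 in DMSO and 8.00, 8.11 and 8.14 with the inhibitor. SCD inhibitor 1 lay within the DMSO range, and the other inhibitor samples lay above it. The log2 difference was 0.09 (SE 0.034, 95% interval 0.00 to 0.17, adjusted p = 0.21 in limma). Without SCD inhibitor 1 it was 0.12 (SE 0.02) and passed (adjusted p = 0.0281 in limma), and it passed in no other of the 17 alternatives (up to 0.415). The window before its middle start holds an antioxidant response element core on the opposite strand, 92 to 84 bases before the start, in capitals in this stretch of the plus strand (chr10:82859105-82859131).
Txnrd1: tggatttttGCTTTGTCAttctgacac

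NAD(P)H quinone dehydrogenase 1, encoded by Nqo1, reduces quinones in a single step and is among the most used readouts of NRF2. Nqo1 read 8.34, 8.39, 8.23 and 8.38 in DMSO and 8.42, 8.52 and 8.52 with the inhibitor. All inhibitor samples lay above all DMSO samples, though SCD inhibitor 1 by 0.027 alone. The means of DMSO and inhibitor were 8.34 ± 0.0727 (SD, n = 4) and 8.49 ± 0.0575 (SD, n = 3). The log2 difference of 0.15 (SE 0.047, 95% interval 0.04 to 0.26) did not pass (adjusted p = 0.117 in limma). It passed in 2 of 17 alternatives, with the arrays centred (adjusted p = 0.0264 in limma) and after a further quantile normalization (0.036), over a range up to 0.303. Its window holds neither motif.

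Superoxide dismutases turn superoxide into hydrogen peroxide, the copper-zinc form of Sod1 mainly in the cytosol and the manganese form of Sod2 in mitochondria. Sod1 read 12.01, 12.11, 12.05 and 12.11 in DMSO and 11.98, 12.03 and 11.93 with the inhibitor, with SCD inhibitor 2 inside the DMSO range. Its log2 difference was -0.09 (SE 0.035, 95% interval -0.17 to -0.01, adjusted p = 0.199 in limma). A second row with the symbol Sod1 differed by -0.05 (SE 0.059, adjusted p = 0.69 in limma), with 10.69, 10.88, 10.80 and 10.79 in DMSO and 10.64, 10.74 and 10.85 with the inhibitor. Sod1 passed in none of the alternatives in limma (adjusted p from 0.131 to 0.404). Its window holds an antioxidant response element core on the opposite strand, 56 to 48 bases before the start, shown in capitals in this stretch (chr16:90220697-90220723, plus strand).
Sod1: ccaaggtggGCGTGGTCAgactcaggc

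Sod2 read 10.78, 10.93, 10.85 and 10.88 in DMSO and 10.96, 10.98 and 10.99 with the inhibitor. The inhibitor samples lay within a narrow range above all DMSO samples, of which DMSO 2 came nearest, at a gap of 0.031. Its log2 difference of 0.12 (SE 0.036, 95% interval 0.03 to 0.20) was not called (adjusted p = 0.121 in limma). It passed with the arrays centred (adjusted p = 0.0493 in limma) and in no other of the 17 alternatives, which ran up to 0.292. Cat encodes catalase, the peroxisomal enzyme that splits hydrogen peroxide. It read 11.80, 11.82, 11.90 and 11.90 in DMSO and 11.98, 11.90 and 11.92 with the inhibitor, so that the groups touched at 11.90. Its log2 difference was 0.08 (SE 0.035, 95% interval -0.01 to 0.16, adjusted p = 0.259 in limma), and it passed in none of the alternatives in limma (from 0.179 to 0.551). The windows of Sod2 and Cat hold neither motif.

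**Figure D2:**
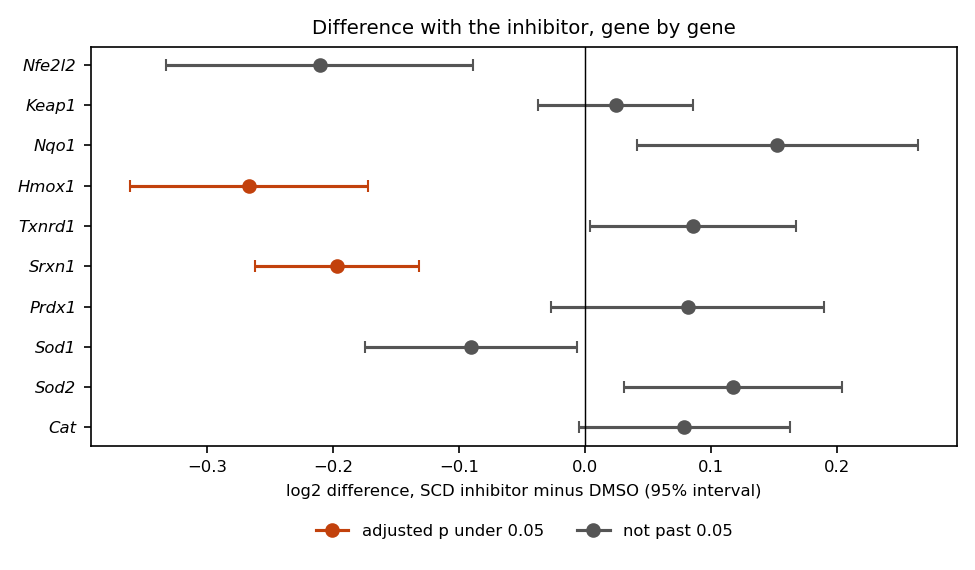
Log2 difference of each of the 10 genes, SCD inhibitor minus DMSO, with its 95% interval from limma; orange points had an adjusted p under 0.05. The called genes are Hmox1 at -0.27 and Srxn1 at -0.20, and the intervals of Keap1, Prdx1 and Cat include 0.

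The 10 genes did not share 1 direction: 4 lay below 0 and 6 above it. The groups did not overlap for 3 genes in the lower and 2 in the higher direction, 5 of the 10. Over all genes the groups did not overlap for 17.3%, 8.30% higher and 9.02% lower. These shares were not matched for level either. Within each array the differences between pairs of genes were also taken, for 3 pairs picked after their values were seen, each a lower against a higher gene; they are given as a description with no test. Hmox1 minus Nqo1 was 3.24, 3.16, 3.28 and 3.08 in DMSO and 2.87, 2.78 and 2.67 with the inhibitor, a change of -0.42. Srxn1 minus Txnrd1 changed by -0.28 and Sod1 minus Sod2 by -0.21.

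Across the 7 arrays Nfe2l2 and Srxn1 correlated at 0.945, Nfe2l2 and Hmox1 at 0.881 and Hmox1 and Srxn1 at 0.902, whereas Nfe2l2 and Nqo1 correlated at -0.492. Nfe2l2 also correlated with Sod1 at 0.8985, above its value with Hmox1, and with Cat at -0.718. These are descriptions over 7 arrays that include the step between the groups. Among all other named genes, those most like Hmox1 by Pearson's r over the 7 arrays were Igfbp4 (0.991), which binds insulin-like growth factors, and Hsd17b14 (0.983), a hydroxysteroid dehydrogenase. Those most like Srxn1 were Hspa12a (0.995), a distant relative of the HSP70 chaperones, and Usp39 (0.995), a splicing factor.

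**Figure D3:**
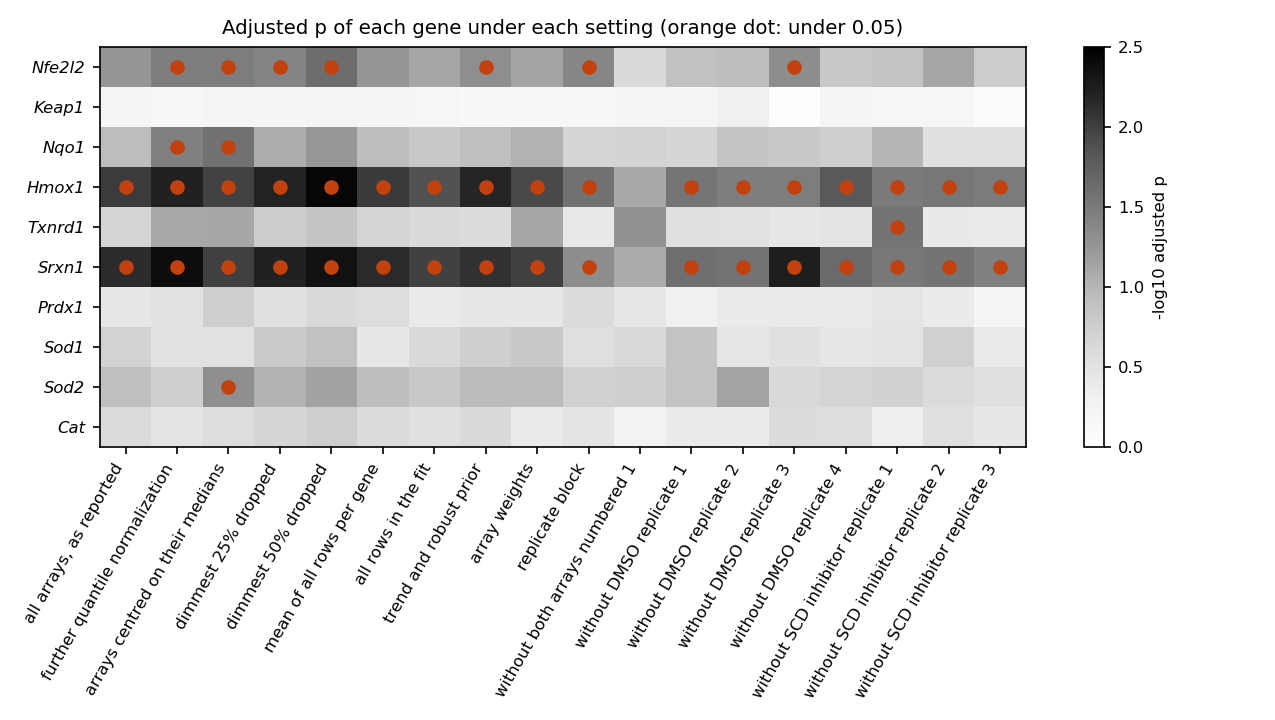
Adjusted p of each of the 10 genes (rows) in the fit as reported and in 17 alternative settings (columns), in shades of -log10 adjusted p, with an orange dot where it was under 0.05. Hmox1 and Srxn1 carry a dot everywhere except without both arrays numbered 1, Nfe2l2 in 7 alternatives, and Keap1, Prdx1, Sod1 and Cat in none.

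The wider pathway was read from 5 lists, of which 111 of 120 listed genes were measured by a row of their own. Of these 21 fell and 4 rose, 22.5% in all, against 8.00% of all genes. The lists were written with earlier results of these data known, so this share is a description and no test of an excess. The listed genes were brighter, with list medians of 9.08 to 9.27 against 5.59 over all genes. Neither this share nor those of the single lists was matched for level. With the dimmest 50% of genes dropped, 952 genes were higher and 1037 lower in all, and 9 and 25 in the wider lists. Those counts come from the brighter 50% of genes alone, so the share called there is well above 8.00%. For lists this bright, 8.00% is therefore a low yardstick. Centring the arrays gave 24 lower and 12 higher in the lists. With 1 array left out, the lower genes numbered 13 when it was DMSO 2, DMSO 3 or SCD inhibitor 3 and 11 when it was DMSO 4, and 6 when both arrays numbered 1 were. Higher genes numbered 0 when DMSO 3 was left out and 1 when DMSO 1, DMSO 2, DMSO 4, SCD inhibitor 2 or SCD inhibitor 3 was.

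Of 20 regulators and partners of NRF2 none passed in limma, with 6 at an unadjusted p under 0.05 (21.9% over all genes) and a median log2 difference of 0.01. The smallest p-values belonged to Brca1, a DNA repair gene whose product binds NRF2 (log2 0.44, SE 0.10, adjusted p = 0.0521), and to Maff, a small MAF partner (log2 -0.30, SE 0.078, adjusted p = 0.0688). They passed in 9 and 5 of the 17 alternatives, with adjusted p up to 0.161 and 0.175 in limma. Bach1, the repressor that competes with NRF2 for its elements, differed by 0.02 (SE 0.037), and Sqstm1, the autophagy receptor that can withdraw KEAP1, by -0.07 (SE 0.024).

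Among 28 other target genes of NRF2, a list written with earlier results of these data known, 13 fell, none rose and 15 did not pass. The median log2 difference of the list was -0.18. Those called were 46.4% of the list, against 8.00% of all genes, a description that was not matched for level. Gstm3, a glutathione transferase among the 13, passed in only 4 of the 17 alternatives. Whether its row reads the gene itself or a copy was not tested. Abcc4, an exporter of organic anions and cyclic nucleotides, read 9.16, 9.39, 9.02 and 9.18 in DMSO and 7.34, 7.52 and 7.20 with the inhibitor, a 3.56-fold decrease. Gsta3, a glutathione transferase, read 6.83, 7.12, 7.08 and 7.08 in DMSO and 5.86, 6.02 and 6.06 with the inhibitor, a 2.07-fold decrease. In both the groups were far apart, and both passed in all 17 alternatives. Ephx1, the microsomal epoxide hydrolase, fell by 0.49 (SE 0.038) and also passed in all of them. Cbr3, a carbonyl reductase, fell by 0.58 (SE 0.06) and Osgin1, a growth inhibitor induced by oxidative stress, by 0.47 (SE 0.07); both calls ended when the arrays numbered 1 were left out and under the replicate block (adjusted p up to 0.0561 and 0.112 in limma). Slc7a11, the cystine transporter, fell by 0.64 (SE 0.12), a call that ended in 6 of 17 alternatives, among them without DMSO 2, DMSO 3, DMSO 4 or SCD inhibitor 2 (adjusted p up to 0.0898 in limma).

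Both subunits of the enzyme that starts glutathione synthesis stood among the 13, and they are named here after their values were seen. The catalytic subunit Gclc fell by 0.25 (SE 0.043, adjusted p = 0.0177 in limma) and the modifier Gclm by 0.31 (SE 0.07, adjusted p = 0.0461), and the calls ended in 6 and 8 of the 17 alternatives (adjusted p up to 0.107 and 0.158). That of Gclc ended when DMSO 2, DMSO 4, SCD inhibitor 1 or SCD inhibitor 3 was left out, and that of Gclm when any DMSO sample, SCD inhibitor 1 or SCD inhibitor 3 was.

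**Figure D4:**
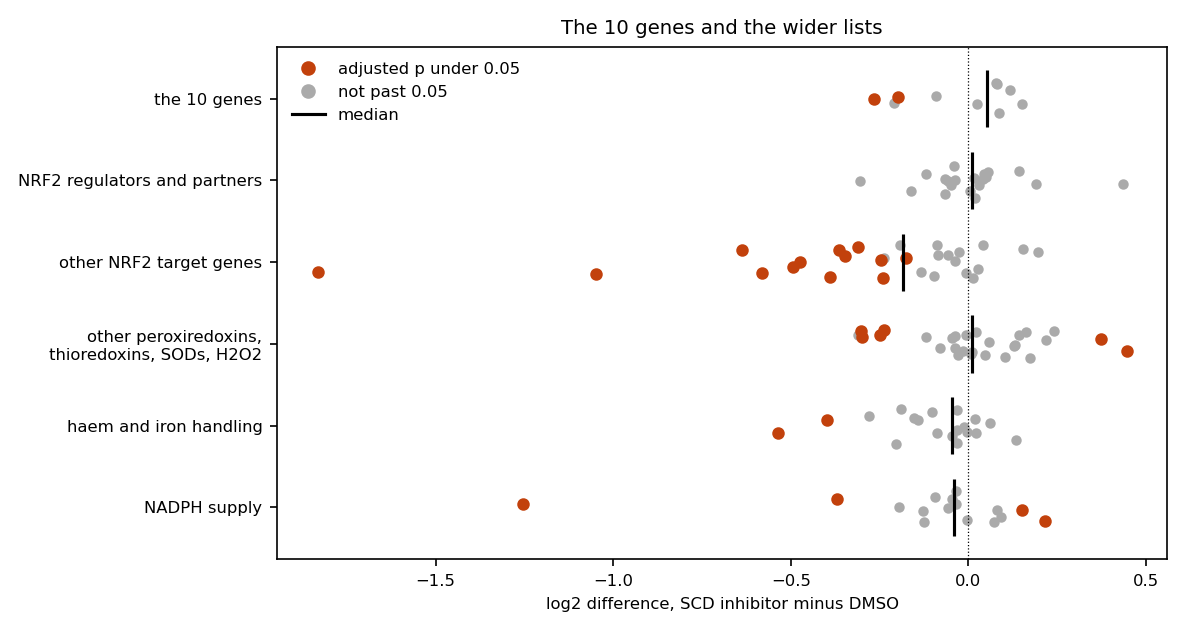
Log2 difference, SCD inhibitor minus DMSO, of the 10 genes and of the measured genes of 5 wider lists (vertical scatter within a list has no meaning); orange points had an adjusted p under 0.05 and black bars are list medians. The list of other NRF2 targets has 13 orange points, all below 0, with Abcc4 at -1.83 and Gsta3 at -1.05 farthest out.

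Of 28 further peroxiredoxins, thioredoxins, dismutases and peroxide enzymes 4 fell and 2 rose, with a median of 0.01. Those called were 21.4% of the list, against 8.00% of all genes. The list had a median level of 9.09 against 5.59 over all genes. Among the brighter 50% of genes the share called was well above 8.00%, so the 21.4% is not shown to be an excess. Aifm2, which encodes the ferroptosis suppressor FSP1, fell by 0.25 (SE 0.038) a call that ended in 1 alternative, with the arrays numbered 1 removed (adjusted p = 0.105 in limma, the highest of 17). Sod3, the extracellular dismutase, fell by 0.24 (SE 0.041), a call that ended in 6 alternatives, among them when DMSO 3, DMSO 4, SCD inhibitor 2 or SCD inhibitor 3 was left out (adjusted p up to 0.075 in limma). Sesn2, a stress-induced sestrin, fell by 0.30 (SE 0.064) and its relative Sesn1, a p53 target, rose by 0.45 (SE 0.096). Glrx, glutaredoxin, fell by 0.30 (SE 0.063) and Prdx2, another cytosolic peroxiredoxin, rose by 0.37 (SE 0.078). Whether the row of Prdx2 reads the gene itself or a copy was not tested. The calls of Sesn2, Sesn1, Glrx and Prdx2 each ended in 7 to 9 of the 17 alternatives, and each ended when DMSO 1, DMSO 3, DMSO 4 or SCD inhibitor 2 was left out (adjusted p up to 0.147 in limma).

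Of 19 genes of haem and iron handling 2 fell and none rose, 10.5% of the list and near the 8.00% of all genes; 8 were at an unadjusted p under 0.05 in limma, where 21.9% of all genes were. Blvra, which encodes the reductase of the biliverdin that haem oxygenase makes, differed by 0.02 (SE 0.09) and did not pass. Blvrb, which encodes another biliverdin and flavin reductase, read 10.96, 10.80, 10.67 and 10.79 in DMSO and 10.45, 10.44 and 10.33 with the inhibitor, wholly lower. It fell by 0.40 (SE 0.068), a call that ended in 5 of 17 alternatives, without DMSO 2, DMSO 4, SCD inhibitor 2, SCD inhibitor 3 or both arrays numbered 1 (adjusted p up to 0.0718 in limma). Slc11a2, the divalent metal transporter, fell by 0.54 (SE 0.061) and its call ended in 1 alternative, with the arrays numbered 1 removed (adjusted p = 0.0572 in limma, the highest of 17). Fth1, the ferritin heavy chain and a known NRF2 target, had a log2 difference of 0.02 (SE 0.02).

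Of 16 genes that supply NADPH 2 fell and 2 rose, 25% of the list, against 8.00% of all genes. This list too was brighter, with a median level of 9.08 against 5.59, and its share was not matched for level. Aldh1l1, the cytosolic formyltetrahydrofolate dehydrogenase, read 8.95, 8.83, 8.88 and 8.84 in DMSO and 7.50, 7.70 and 7.66 with the inhibitor. The groups lay far apart, the decrease was 2.39-fold, and it passed in all 17 alternatives. Its mitochondrial counterpart Aldh1l2 fell by 0.37 (SE 0.073), the transhydrogenase Nnt rose by 0.22 (SE 0.039) and the isocitrate dehydrogenase Idh1 rose by 0.15 (SE 0.03). The calls of these 3 ended in 6, 6 and 8 of the alternatives, in each case also when DMSO 2, DMSO 3 or SCD inhibitor 1 was left out (adjusted p up to 0.115 in limma). Of the NADPH enzymes known as NRF2 targets, Me1 differed by -0.12 (SE 0.046), Pgd by 0.09 (SE 0.038) and Tkt by -0.09 (SE 0.028), none of them past the test. Whether the row of Me1 reads the gene itself or a copy was not tested.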

How the data were processed

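The authors deposited a table of log2 expression values; the submitters' processing notes name RMA, without version, annotation release or filters. That the scale is log2 follows from the range of 2.23 to 13.2. Scanner files were not used here, so no statement is made on detection. The number of arrays limits the precision. The array annotation gave 1 symbol to 21218 of 28996 rows; 1881 rows with several symbols and 5897 that it does not list did not enter. Groups came from the treatment labels. All 7 arrays entered 1 fit with limma 3.58.1 (lmFit, eBayes) in R 4.3.3, with no filter on dim genes and p-values adjusted by Benjamini-Hochberg over 18820 genes; the fit was tested on simulated data. RMA can compress changes at both ends of the scale. The alternatives concerned normalization, dim genes, the row per gene, the variance model, array weights, the replicate block and left-out arrays. The members and lists were chosen with earlier results of these data known. From each wider list up to 6 called genes with the largest change were named, or the 2 with the smallest p. Others named there (Bach1, Sqstm1, Gstm3, Gclc, Gclm, Blvra, Fth1, Me1, Pgd and Tkt) were chosen after their values were seen. The genes most like a called member were named by Pearson's r, without predicted genes, small RNA genes or chemoreceptors.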

Additional observations from a re-analysis of the deposited data

Results flagged for a closer look

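Prdx1 stood out on 1 array: DMSO 1 read 11.04 (11.0449 before rounding), while the other 3 DMSO samples read 11.18 each, so that the gap made up the whole range of the group. Those 3 samples were tied at 11.1777, so that any gap, however small, would have been flagged. The usual chance rate of about 1 in 20 groups of this size therefore does not apply here. In all, 10 genes were examined. The second row with this symbol read 11.04 to 11.07 in DMSO. Without DMSO 1 the log2 difference of Prdx1 was 0.05, and it was not called.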

How the results depend on the processing

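Over 17 alternatives no gene of the 10 reversed its direction. A further quantile normalization gave 1106 higher genes in all, 1 higher among the 10 (Nqo1) and 9 in the wider lists; centring the arrays gave 1296, 2 (Nqo1 and Sod2) and 12. Dropping the dimmest 50% of genes gave 9 higher genes in the wider lists. Without both arrays numbered 1 there were 434 higher and 374 lower genes in all, 0 lower of the 10 in limma (4 at an unadjusted p under 0.05), and 1 higher and 6 lower in the wider lists. The replicate numbers did not pair the samples by the rule used (correlations of 0.174, 0.138 and 0.0796); with the replicate block 437 genes were higher and 459 lower, 2 genes of the wider lists were higher, and Nfe2l2 passed (log2 -0.20, adjusted p = 0.0405 in limma; 0.0242 to 0.245 over all alternatives).

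Leaving out 1 array at a time gave 369 to 712 higher and 541 to 643 lower genes in all. Among the 10 it gave 0 to 1 higher and 2 to 3 lower. In the wider lists it gave 0 to 5 higher and 11 to 17 lower. Leaving out DMSO 3 gave 423 higher genes in all, DMSO 4 437, SCD inhibitor 2 369 and SCD inhibitor 3 408, while lower genes came to 543 when DMSO 4 was left out and 541 when SCD inhibitor 3 was. Fewer samples enter these fits, yet without SCD inhibitor 1 the higher genes in all came to 712, against 682 in the full fit. The cause was not tested for any setting.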
